A study of Homo sapiens with 3 samples.

Results

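The Notch pathway was examined through 10 of its genes in 3 RNA-seq libraries of CAL27, a human oral squamous cell carcinoma (OSCC) line. The genes were taken by symbol from a list of receptors (NOTCH1, NOTCH2, NOTCH3), ligands (JAG1, JAG2, DLL1), a receptor-modifying enzyme (LFNG) and target genes (HES1, HEY1, NRARP). The list uses no threshold on measured values, but it was drawn up with earlier results of these data known. All 10 were among the 19220 genes of the count table, and all 10 passed the filter on low counts (on average 10 or more per library), as did 13676 genes in all. One library came from parental CAL27 cells grown without drug, 1 from CAL27/5FU cells, the 5-fluorouracil-resistant derivative kept in 10 μM 5FU, and 1 from CAL27/OXA cells, the oxaliplatin-resistant derivative kept in 10 μM OXA. The 3 lines shared the same parental line and the same culture medium with serum, and the 5FU-resistant cells had been selected by raising the drug concentration step by step. The resistant lines were kept in drug and the parental line was not, so drug exposure at harvest and acquired resistance cannot be told apart. With 1 library per line, no difference was set against a spread between replicates or tested. Further columns of the tables, whose names differ from those used in their last number, match no sample label and were not used, and whether they are second libraries of these lines is not known here. Whether the resistant lines are single clones is not given in the sources used here.

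The libraries held 37297713 to 43455488 counts. Counts were scaled with TMM factors, and a log2 ratio past 2-fold is given as higher or lower. The 95% interval beside a ratio is the exact Clopper-Pearson interval of the 2 counts behind it and covers counting error only. Reads without molecular identifiers are not independent molecules, so the interval may be too narrow even for that error. Of 8 squamous epithelial markers, 0 were without counts in any library. Their summed level was 5965 FPKM in CAL27 cells, 1376 in CAL27/5FU cells and 1598 in CAL27/OXA cells, and 6 of the 8 were more than 2-fold lower in CAL27/5FU cells and 5 in CAL27/OXA cells. Summed fibroblast markers were between 7.51 and 14.9 FPKM and endothelial markers between 0.456 and 2.29 FPKM. The blood markers summed to 27.1 to 64.2 FPKM, nearly all of it CD68, while PTPRC had at most 2 counts. The part of these marker levels in the Notch values was not tested.

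Notch signalling passes between neighbouring cells. A ligand of the Jagged or Delta-like family on one cell binds a Notch receptor on the next, the receptor is cut first by an ADAM protease and then by γ-secretase, and the freed intracellular part joins the DNA-binding protein RBPJ and a Mastermind co-activator to switch on target genes such as those of the HES and HEY families. In stratified squamous epithelium the pathway is known for its role in the move of basal cells into differentiation, and Notch receptor genes are known sites of loss-of-function mutations in squamous carcinomas of the head and neck.

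Of the 10 Notch genes, 5 were more than 2-fold lower in CAL27/5FU cells than in parental cells and 0 were higher, where 6.72% of all tested genes were lower and 8.46% were higher. With FPKM and a pseudocount of 1, the number lower in CAL27/5FU cells was 2. In CAL27/OXA cells, 6 of the 10 were more than 2-fold lower and 0 higher, with 9.28% of all tested genes lower and 6.54% higher. HES1 and HEY1 were inside 2-fold there with FPKM and a pseudocount of 1. The lower genes included the receptors NOTCH1 and NOTCH3 and the targets HES1 and HEY1 in each resistant line. The others were DLL1 in CAL27/5FU cells and LFNG and NRARP in CAL27/OXA cells. All 10 log2 ratios were below 0 in each comparison with CAL27, beside 50.3% of all tested genes for CAL27/5FU cells and 49.5% for CAL27/OXA cells, although JAG2 turned positive in CAL27/5FU cells when the counts were scaled by library totals or taken as FPKM. The median log2 ratio of the 10 genes was -0.96 in CAL27/5FU cells and -1.30 in CAL27/OXA cells, against medians of -0.0035 and 0.0055 over all tested genes. Both comparisons use the same parental library.

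**Figure D1:**
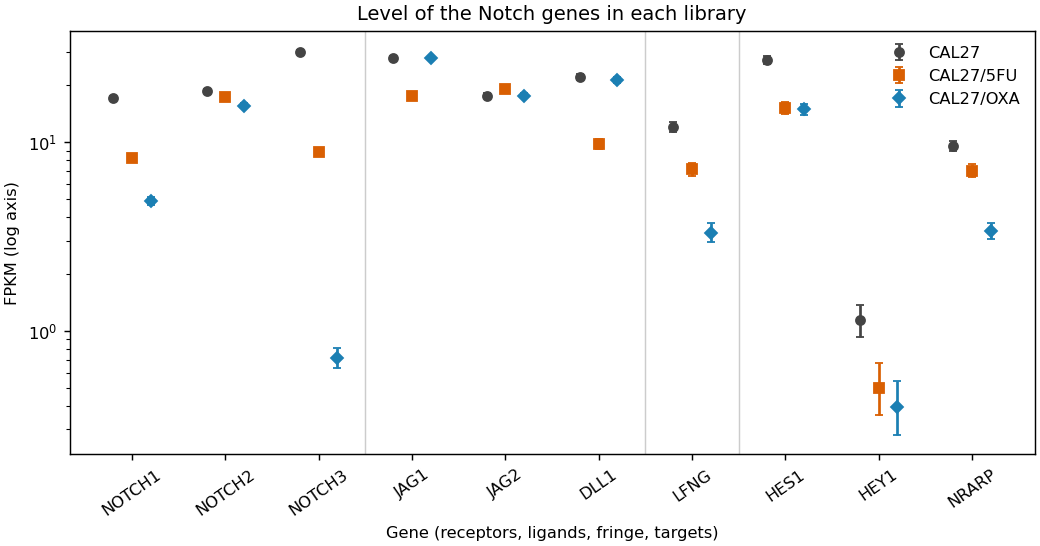
FPKM (log axis) of each Notch gene in the libraries of CAL27 (circles), CAL27/5FU (squares) and CAL27/OXA (diamonds) cells, with bars for the 95% Poisson interval of the count. NOTCH3 spans the widest range, from 30.0 FPKM in CAL27 to 0.721 FPKM in CAL27/OXA cells, while NOTCH2 and JAG2 stay between 15.6 and 19.2 FPKM.

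Levels between genes were compared as FPKM, which are scaled by gene length and by library total. In CAL27 cells NOTCH3 was the most abundant of the 10 at 30.0 FPKM, followed by JAG1 (28.0), HES1 (27.3), DLL1 (22.0), NOTCH2 (18.6), JAG2 (17.7), NOTCH1 (17.1), LFNG (12.0), NRARP (9.51) and HEY1 (1.14). The 95% counting intervals of JAG1 and HES1 overlapped, as did those of NOTCH2 and JAG2 and those of JAG2 and NOTCH1. In CAL27/5FU cells JAG2 came first at 19.2 FPKM, and NOTCH3 was in the sixth place at 8.84 FPKM, with an interval that overlapped that of NOTCH1. In CAL27/OXA cells JAG1 came first at 27.9 FPKM and DLL1 followed at 21.4 FPKM, while NOTCH3 was in the ninth place at 0.721 FPKM. HEY1 was the least abundant of the 10 in every library.

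Among the receptors, NOTCH3 differed most. NOTCH3 (ENSG00000074181.8, chromosome 19, 15159038 to 15200981 on the minus strand of GRCh38) had 10120 counts in CAL27 cells, 2663 in CAL27/5FU cells and 253 in CAL27/OXA cells. The counts thus decreased from the parental to the 5FU-resistant and on to the oxaliplatin-resistant library. The log2 ratio to CAL27 was -1.93 (95% interval -1.995 to -1.87) in CAL27/5FU cells and -5.50 (-5.70 to -5.33) in CAL27/OXA cells, which is 3.82-fold and 45.2-fold lower. Only 0.212% of all tested genes had a lower ratio in CAL27/OXA cells, where NOTCH3 took rank 30 from the lowest of 13676.

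NOTCH1 (ENSG00000148400.10, chromosome 9, 136494433 to 136545786, minus strand), the receptor best known in keratinocyte differentiation, had 6664 counts in parental, 2861 in CAL27/5FU and 1970 in CAL27/OXA cells. Its log2 ratio was -1.23 (-1.29 to -1.16) in CAL27/5FU cells, 2.34-fold lower, and -1.95 (-2.02 to -1.87) in CAL27/OXA cells, 3.85-fold lower. With a pseudocount of 1 FPKM its log2 ratio in CAL27/5FU cells was -0.97, inside 2-fold. An antisense gene overlaps NOTCH1, and without a stated strand setting its reads cannot be told apart from those of NOTCH1.

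NOTCH2 (ENSG00000134250.19, chromosome 1, 119911553 to 120069626, minus strand) stayed within 2-fold. It had 6132, 5134 and 5359 counts in CAL27, CAL27/5FU and CAL27/OXA cells, with log2 ratios of -0.26 (-0.32 to -0.21) and -0.38 (-0.44 to -0.33). NOTCH2NL, a partial copy that can share reads with NOTCH2, had 976, 1046 and 1455 counts, so the values of both are uncertain to that extent.

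The makeup of the receptor pool differed with these values. The 4 receptor genes, NOTCH4 included, summed to 65.9 FPKM in parental, 34.8 FPKM in CAL27/5FU and 22.2 FPKM in CAL27/OXA cells. NOTCH3 made up 45.6% of this sum in CAL27 cells, 25.4% in CAL27/5FU cells and 3.25% in CAL27/OXA cells. The share of NOTCH2 was 28.2%, 50.2% and 70.5%, and that of NOTCH1 was 26.0%, 23.7% and 22.0%. NOTCH2 was thus the leading receptor transcript in both resistant libraries and NOTCH3 in the parental one. NOTCH4, a receptor known mainly from endothelium, had 34, 61 and 276 counts, and its log2 ratio was 0.80 (0.21 to 1.49) in CAL27/5FU cells and 2.76 (2.31 to 3.39) in CAL27/OXA cells. At 0.941 FPKM in CAL27/OXA cells its level was still low.

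**Figure D2:**
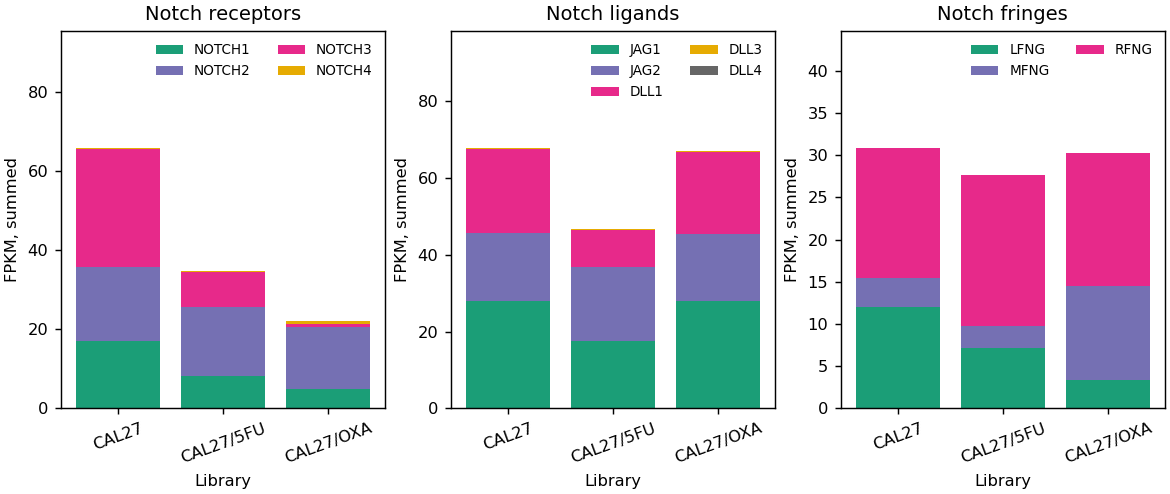
Stacked FPKM of the Notch receptors, ligands and fringe genes in each library (bars start at 0, 1 library per bar). The receptor sum is 65.9 FPKM in CAL27 and 22.2 FPKM in CAL27/OXA cells, while the ligand sums of these libraries are 67.8 and 67.2 FPKM.

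Among the ligands, DLL1 was more than 2-fold lower in CAL27/5FU cells, and the 3 ligands were within 2-fold in CAL27/OXA cells. DLL1 (ENSG00000198719.8, chromosome 6, 170282206 to 170306565, minus strand), a Delta-like ligand, had 3048 counts in parental, 1208 in CAL27/5FU and 3082 in CAL27/OXA cells. The CAL27/5FU library was the low one, and the other two held nearly equal counts. The log2 ratio was -1.34 (-1.44 to -1.25) in CAL27/5FU cells, 2.53-fold lower, and -0.17 (-0.25 to -0.10) in CAL27/OXA cells. FAM120B overlaps DLL1 on the opposite strand, and it was within 2-fold in each comparison as one of the neighbours described further on.

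JAG1 (ENSG00000101384.12, chromosome 20, 10637684 to 10673999, minus strand) followed the same order with smaller differences. It had 7013, 3918 and 7259 counts in CAL27, CAL27/5FU and CAL27/OXA cells, with log2 ratios of -0.85 (-0.90 to -0.79) and -0.14 (-0.19 to -0.09). An antisense gene overlaps JAG1, so part of these reads may belong to it.

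JAG2 (ENSG00000184916.8, chromosome 14, 105140981 to 105168824, minus strand) was the steadiest of the 10 genes. Its counts were 4265, 4142 and 4417, and its log2 ratios were -0.05 (-0.11 to 0.01) and -0.14 (-0.20 to -0.08). The ligand genes JAG1, JAG2, DLL1, DLL3 and DLL4 summed to 67.8 FPKM in parental, 46.8 FPKM in CAL27/5FU and 67.2 FPKM in CAL27/OXA cells. JAG2 made up 41.0% of the ligand sum in CAL27/5FU cells, where it was the leading ligand, and 26.1% and 26.2% in CAL27 and CAL27/OXA cells, where JAG1 led with 41.3% and 41.5%.

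LFNG (ENSG00000106003.12, chromosome 7, 2512529 to 2529177, plus strand) encodes lunatic fringe, a glycosyltransferase of the Golgi that extends O-fucose on the receptors and alters which ligands they respond to. It had 1016 counts in parental, 541 in CAL27/5FU and 292 in CAL27/OXA cells. These are again decreasing counts from the parental to the oxaliplatin-resistant library. The log2 ratio was -0.91 (-1.07 to -0.76) in CAL27/5FU cells, just inside 2-fold, and -1.98 (-2.18 to -1.80) in CAL27/OXA cells, 3.95-fold lower. Of the other fringe enzymes, RFNG stayed within 2-fold at 1176, 1220 and 1257 counts, and MFNG had 298, 199 and 1009 counts. The log2 ratio of MFNG was -0.58 (-0.86 to -0.33) in CAL27/5FU cells and 1.56 (1.38 to 1.76) in CAL27/OXA cells. In CAL27/OXA cells MFNG held 36.8% of the summed fringe FPKM and LFNG 11.0%, where in CAL27 cells MFNG held 11.1% and LFNG 39.0%.

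Of the target genes, HES1 and HEY1 were more than 2-fold lower in both resistant lines and NRARP in CAL27/OXA cells. HES1 (ENSG00000114315.3, chromosome 3, 194136145 to 194138732, plus strand), a transcriptional repressor and direct Notch target in many cell types, had 1665 counts in parental, 828 in CAL27/5FU and 947 in CAL27/OXA cells. The 2 resistant libraries lay close to each other and below the parental one. The log2 ratios were -1.01 (-1.14 to -0.89) and -1.002 (-1.12 to -0.89), both intervals holding the 2-fold line. The call of HES1 therefore rests on the scaling: its log2 ratio was -0.84 and -0.87 by library totals and hence inside 2-fold.

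NRARP (ENSG00000198435.3, chromosome 9, 137300482 to 137302251, minus strand) encodes a small ankyrin-repeat protein that binds the Notch intracellular domain and limits the signal. It had 1042, 691 and 385 counts in CAL27, CAL27/5FU and CAL27/OXA cells. The log2 ratio was -0.60 (-0.74 to -0.46) in CAL27/5FU cells and -1.62 (-1.80 to -1.46) in CAL27/OXA cells, 3.07-fold lower. The order of the libraries was that of NOTCH1, NOTCH3 and LFNG.

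HEY1 (ENSG00000164683.16, chromosome 8, minus strand), a repressor related to HES1, was far less abundant, with 105 counts in parental, 41 in CAL27/5FU and 38 in CAL27/OXA cells. Its log2 ratios were -1.32 (-1.92 to -0.83) and -1.60 (-2.23 to -1.11). The intervals are the widest among the 10 genes, and in CAL27/5FU cells the interval reaches inside 2-fold. With a pseudocount of 1 FPKM, close to its own level, both ratios of HEY1 were inside 2-fold, at -0.51 and -0.61.

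**Figure D3:**
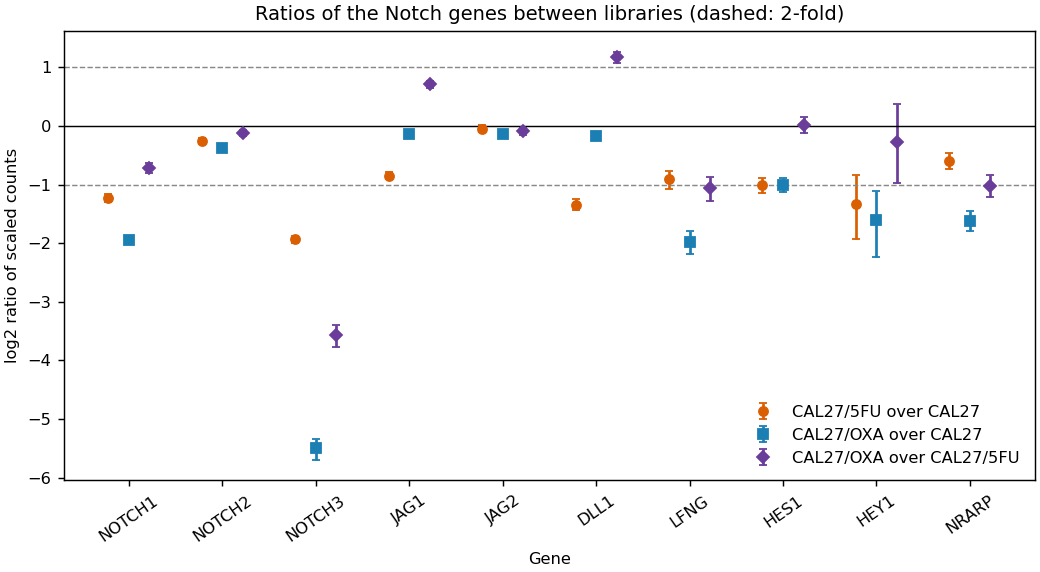
Log2 ratio of scaled counts for each Notch gene in the 3 comparisons, with 95% Clopper-Pearson intervals on the counts and dashed lines at 2-fold. The ratios to CAL27 lie below 0, from -0.05 for JAG2 in CAL27/5FU cells (above 0 by library totals or FPKM) to -5.50 for NOTCH3 in CAL27/OXA cells, and DLL1 is the one gene more than 2-fold higher in CAL27/OXA than in CAL27/5FU cells.

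RBPJ, the DNA-binding partner of all Notch receptors, is known to recognise the letters GTGGGAA. The HES1 promoter is shown with those of HES4 and HEY2, related genes whose windows also held these letters, chosen for display with their counts known. The RefSeq windows (GRCh38.p14) run from 250 bases before to 50 bases after a gene's start and were searched on both strands for GTGGGAA and for its shorter part TGGGAA, so that every match of the first is also one of the second. Of the 35116 windows of all genes, 6.25% held GTGGGAA and 24.0% held TGGGAA. The 250 bases before the start are printed 5′ to 3′ on the strand of the gene, with matches to either motif in capitals. They lie at chr3:194135898-194136147 for HES1 (plus strand), chr1:1000098-1000347 for HES4 (minus strand) and chr6:125749382-125749631 for HEY2 (plus strand).
HES1: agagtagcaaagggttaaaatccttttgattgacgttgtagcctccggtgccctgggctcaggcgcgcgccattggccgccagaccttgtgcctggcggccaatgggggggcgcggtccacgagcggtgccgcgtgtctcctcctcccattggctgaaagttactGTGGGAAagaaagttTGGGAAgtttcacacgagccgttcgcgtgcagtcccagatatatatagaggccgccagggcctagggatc
HES4: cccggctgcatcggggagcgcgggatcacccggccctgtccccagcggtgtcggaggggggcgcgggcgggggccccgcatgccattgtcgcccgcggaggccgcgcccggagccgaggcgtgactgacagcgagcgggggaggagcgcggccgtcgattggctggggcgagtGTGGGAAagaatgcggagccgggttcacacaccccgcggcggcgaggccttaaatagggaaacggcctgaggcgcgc
HEY2: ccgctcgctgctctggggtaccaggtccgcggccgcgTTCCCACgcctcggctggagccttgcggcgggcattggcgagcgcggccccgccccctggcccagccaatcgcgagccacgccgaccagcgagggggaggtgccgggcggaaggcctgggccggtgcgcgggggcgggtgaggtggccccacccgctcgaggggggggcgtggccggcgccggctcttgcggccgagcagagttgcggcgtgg

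HES1 held GTGGGAA from -85 to -79, counted back from -1 at the base before the start, and a further TGGGAA from -70 to -65. HES4 held GTGGGAA from -77 to -71, and HEY2 held it on the opposite strand from -213 to -207 and again across the start from -4 to 3, which the printed stretch cuts. HES4 had 1386, 1749 and 1967 counts in CAL27, CAL27/5FU and CAL27/OXA cells, log2 ratios of 0.33 and 0.32, and HEY2 had 12, 58 and 79 counts, log2 ratios of 2.10 (1.35 to 3.30) and 2.36 (1.64 to 3.54). HEYL, whose window also held GTGGGAA, had log2 ratios of -1.82 and -0.98. The windows of NOTCH1, NOTCH2, NOTCH3, JAG1, JAG2 and NRARP held 0 matches to either motif. Those of the related genes HES2, HES6 and HES7 also held 0 matches to either. The 2 windows of LFNG held 2 matches to TGGGAA, and that of HEYL held 1 match to GTGGGAA and 2 to TGGGAA. DLL1 and HEY1 were not searched.

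Set directly against each other, CAL27/OXA and CAL27/5FU cells differed in the receptor NOTCH3, the ligand DLL1, LFNG and NRARP. In this comparison 3 of the 10 genes were more than 2-fold lower and 1 was more than 2-fold higher in CAL27/OXA cells, where 8.38% of all tested genes were lower, 4.18% were higher and 49.1% had a log2 ratio below 0. NOTCH3 had a log2 ratio of -3.57 (-3.77 to -3.39), 11.9-fold lower. LFNG had -1.07 (-1.28 to -0.86) and NRARP -1.02 (-1.21 to -0.84), with intervals that hold the 2-fold line. DLL1 was 2.25-fold higher in CAL27/OXA cells, a log2 ratio of 1.17 (1.07 to 1.27), and JAG1 was within 2-fold at 0.71 (0.65 to 0.76). NOTCH1 had -0.72 (-0.80 to -0.64), NOTCH2 -0.12, JAG2 -0.09 and HEY1 -0.28 (-0.97 to 0.38). HES1 was at 0.01 (-0.12 to 0.15) and became negative by library totals, the upper quartile and FPKM.

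**Figure D4:**
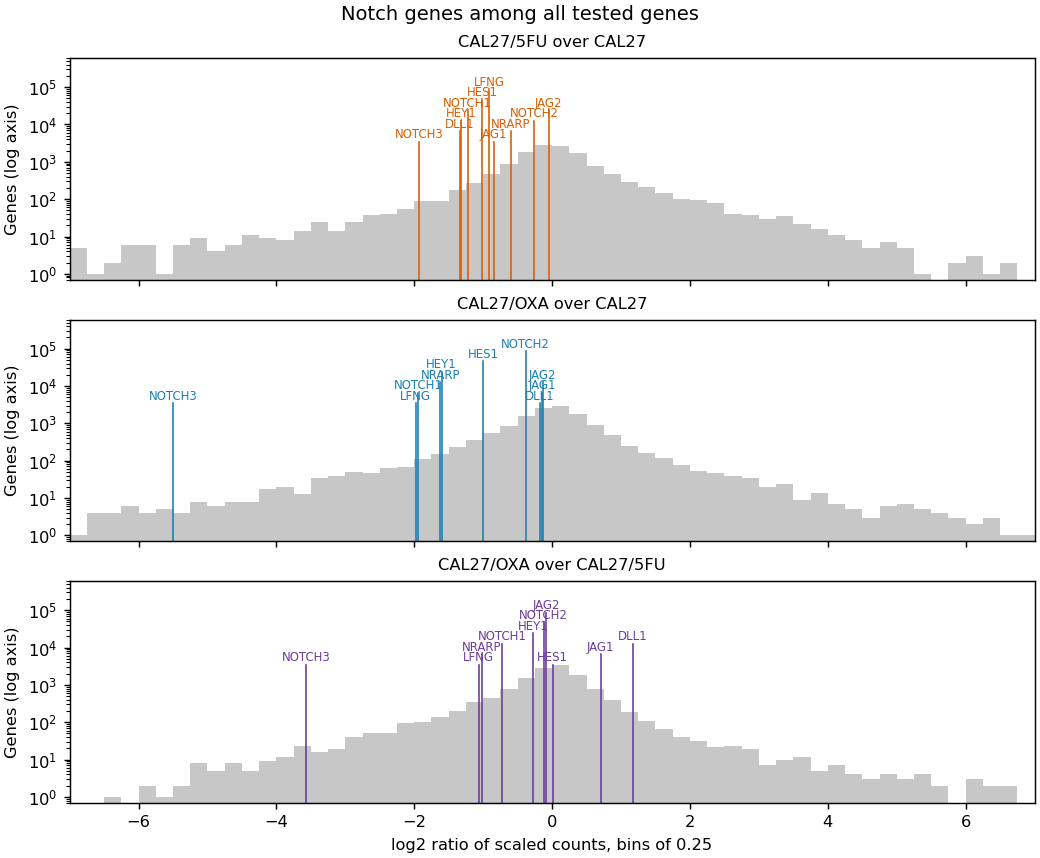
Number of tested genes (log axis) by log2 ratio in bins of 0.25 for each comparison, with a line at the value of each Notch gene. Genes past 7 on either side are not shown. NOTCH3 at -5.50 lies in the lower tail for CAL27/OXA over CAL27 cells, and JAG2 lies near the centre in all 3 comparisons.

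A further 79 genes of the pathway, listed by role, were all in the count table, 3 of them under an older symbol, and 71 passed the filter on low counts. Past 2-fold in CAL27/5FU cells were 6 higher and 4 lower genes of the 71, beside 8.46% and 6.72% of all tested genes, and the median log2 ratio of the 71 was -0.03. In CAL27/OXA cells 7 were higher and 9 lower, beside 6.54% and 9.28%, with a median of -0.10. Between the resistant lines, 5 were higher and 7 lower in CAL27/OXA cells, beside 4.18% and 8.38%, with a median of -0.12. Counts by role are small, and the same shares of all tested genes apply to each role.

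Of the 9 genes of receptor cleavage, 0 were past 2-fold in CAL27/5FU cells, beside 8.46% of all tested genes higher and 6.72% lower, and 1 was lower in CAL27/OXA cells, beside 9.28%. That gene was ADAM17, a membrane protease that sheds many surface proteins, with 6175, 5216 and 2871 counts and log2 ratios of -0.25 and -1.29 (-1.36 to -1.23). ADAM10, the main protease of ligand-activated Notch, had 7364, 6782 and 6460 counts and log2 ratios of -0.13 and -0.38.

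RBPJ was also within 2-fold, with 2428, 2282 and 2247 counts and log2 ratios of -0.10 and -0.30. Of the 22 tested genes of the nuclear complex and its co-repressors, 1 was higher and 1 lower in CAL27/5FU cells, and 1 was higher and 2 lower in CAL27/OXA cells. MAML2, a Mastermind co-activator, had 1104, 1170 and 551 counts, log2 ratios of 0.08 and -1.19. KAT2B, a histone acetyltransferase, had 260, 84 and 337 counts, log2 ratios of -1.61 and 0.18. TLE3, a Groucho-type co-repressor, had log2 ratios of -0.37 and -1.02, and BEND6, a nuclear protein that binds RBPJ, had 29, 125 and 78 counts and log2 ratios of 2.03 and 1.19.

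The other HES and HEY genes went in both directions. Of 8 tested genes, the related BHLHE40 and BHLHE41 among them, 2 were higher and 3 lower in CAL27/5FU cells. In CAL27/OXA cells 2 were higher and 2 lower. BHLHE40 was among the lower genes in each resistant line. HES2 had 1108 counts in parental, 287 in CAL27/5FU and 150 in CAL27/OXA cells, log2 ratios of -1.95 (-2.15 to -1.77) and -3.06 (-3.33 to -2.83). HES7, best known from the segmentation clock of the embryo, had 52, 471 and 482 counts, log2 ratios of 3.13 (2.76 to 3.61) and 2.98 (2.61 to 3.46). HES2 thus lay on the side of HES1 and HEY1, and HES7 and HEY2 on the other side, in each comparison with CAL27. HEYL had 33, 8 and 18 counts, log2 ratios of -1.82 (-3.38 to -0.91) and -0.98 (-1.98 to -0.19), and BHLHE40, a related repressor, had -1.04 and -1.24.

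Among ligands, non-canonical ligands and secreted modulators, DLL3 had 7, 18 and 23 counts, log2 ratios of 1.15 (0.03 to 2.86) and 1.31 (0.26 to 2.99). DLL4 was under the filter, with 0 counts in parental, 10 in CAL27/5FU and 8 in CAL27/OXA cells. Against a floor of 3 counts in the parental library these were 3.32-fold and 2.34-fold higher, with the counts of the resistant lines taken as exact. The counting intervals of the DLL4 log2 ratios reached down to 1.16 in CAL27/5FU cells and to 0.58, inside 2-fold, in CAL27/OXA cells. DNER had 190, 215 and 89 counts, log2 ratios of 0.17 and -1.26, and EGFL7 had 168, 203 and 66 counts, log2 ratios of 0.26 and -1.51.

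Of the enzymes that glycosylate the receptors, 1 of 10 was higher and 0 were lower in CAL27/5FU cells (all tested genes 8.46% and 6.72%), and 1 was higher and 2 lower in CAL27/OXA cells (6.54% and 9.28%). The xylosyltransferase genes GXYLT2 (82, 67 and 26 counts) and XXYLT1 (1188, 946 and 602 counts) had log2 ratios of -1.76 and -1.17 in CAL27/OXA cells. The glucosyltransferase genes POGLUT1 and POGLUT3 had log2 ratios of -0.52 and 1.02 in CAL27/5FU cells and 0.83 and 0.88 in CAL27/OXA cells. Of the 16 ubiquitin ligase and trafficking genes, 1 was higher and 0 lower in each resistant line, near the shares of all tested genes that were higher (8.46% and 6.54%). These were DTX1, with 15, 48 and 8 counts and log2 ratios of 1.55 (0.81 to 2.61) and -0.92 (-2.54 to 0.23), and NEURL1, with 37, 38 and 219 counts and log2 ratios of 0.03 and 2.32 (1.87 to 2.92).

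**Figure D5:**
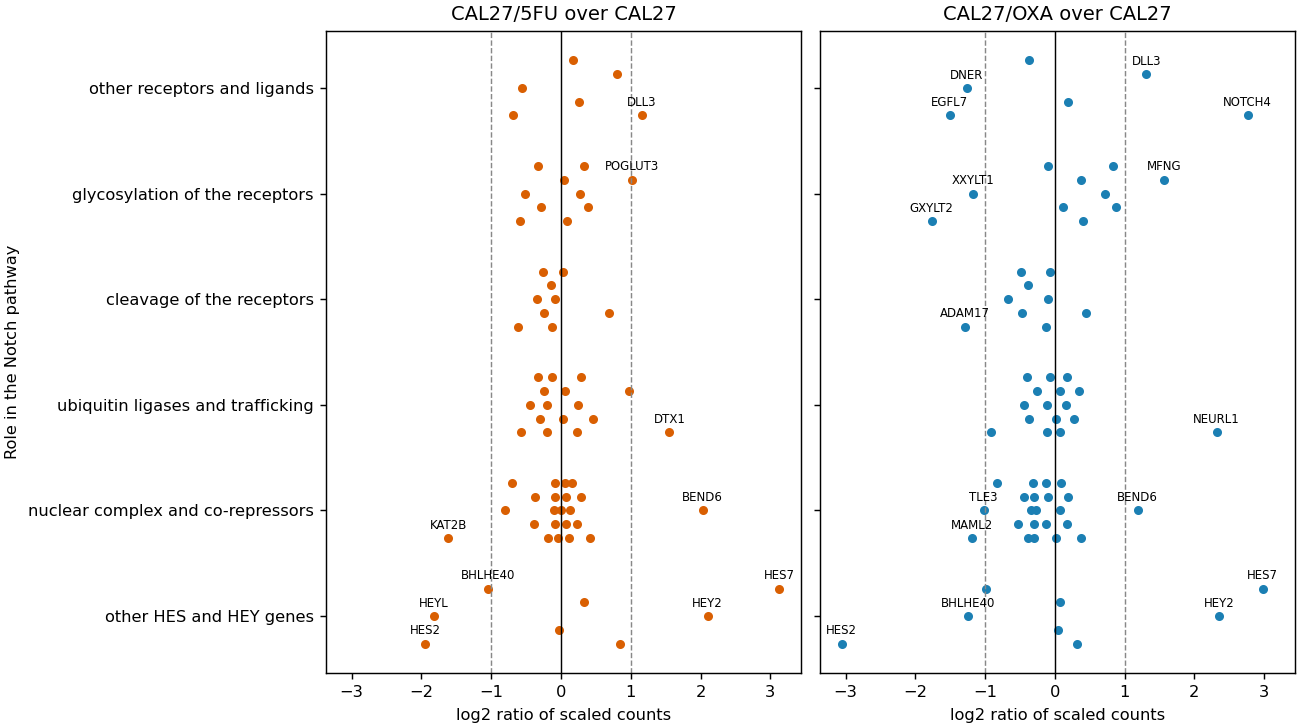
Log2 ratio of each tested gene of the wider Notch pathway by role, for CAL27/5FU (left) and CAL27/OXA (right) over CAL27 cells, with 1 point per gene, names for genes past 2-fold and dashed lines at 2-fold; the height within a role has no meaning. Genes of receptor cleavage lie between the 2-fold lines except ADAM17 in CAL27/OXA cells, while HES7 and HEY2 lie on the right and HES2 on the left of both panels.

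The genes beside each member on its chromosome were also measured, as the median of up to 5 tested genes on each side. These neighbours were taken by their order along the chromosome, with no limit on distance. Around NOTCH3 the 10 neighbours had median log2 ratios of -0.09 in CAL27/5FU and -0.18 in CAL27/OXA cells, beside -1.93 and -5.50 for NOTCH3 itself. Of these 10 neighbours, 2 were more than 2-fold lower in each comparison, down to -1.91 in CAL27/5FU and -3.46 in CAL27/OXA cells. Around DLL1 the median of 9 neighbours, which ranged from -0.48 to 0.28, was -0.07 in CAL27/5FU cells. The neighbours of LFNG had medians of 0.11 and -0.18, with 0 genes past 2-fold. Around NOTCH1, 9 of the 10 neighbours in CAL27/5FU cells had ratios below 0, with a median of -0.50. In CAL27/OXA cells the median was -0.23. There 7 of the 10 were below 0 and 2 were more than 2-fold lower, down to -1.51 for EGFL7. Around NRARP, farther along the same chromosome, the medians were -0.33 and -0.46, and 4 of the 10 neighbours were more than 2-fold lower in CAL27/OXA cells. The neighbours of HES1 had medians of -0.26 and -0.32, with 9 of 10 below 0 in CAL27/5FU cells and 3 of 10 more than 2-fold lower in CAL27/OXA cells, down to -3.40. In each resistant line 1 of these 10 was more than 2-fold higher, at 1.61 and 1.66. Those of HEY1 had medians of -0.27 and -0.77, with 9 of 10 below 0 and 3 of 10 more than 2-fold lower in CAL27/OXA cells. The neighbours of NOTCH2 had medians of 0.16 and 0.37, and in CAL27/OXA cells they ranged from -2.47 to 0.98. For JAG1 the medians were 0.14 and 0.37, and for JAG2 0.17 and -0.18. The part of these surroundings in the ratios of the 10 genes was not tested.

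NOTCH3 had the largest absolute log2 ratio of the 10 genes in both resistant lines. By Euclidean distance between pairs of log2 ratios to CAL27, over the 3 libraries and 11541 genes averaging 100 or more counts per library, the genes nearest to it included S100A7 and PELI2. S100A7 encodes psoriasin, a calcium-binding protein of differentiating squamous epithelium. It had 6970, 1673 and 142 counts, log2 ratios of -2.06 and -5.79, at a distance of 0.315. PELI2 had 430, 124 and 6 counts, log2 ratios of -1.79 and -5.91, at a distance of 0.439. In all, 7 genes lay within a distance of 1.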

How the data were processed

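RNA of CAL27, CAL27/5FU and CAL27/OXA cells was sequenced on an Illumina platform by Novogene, and the submitters' processing notes name CASAVA 1.8, HISAT2 2.0.5 and GRCh38. The counting tool, annotation and strandedness are not given in the sources used here. The authors deposited raw read counts per gene symbol and FPKM values made from them. A further 3 columns of per-sample values in each of the tables, named like those used but for their last number, match no label and were left out, and whether they are second libraries of the lines is not known here. The 10 genes and the wider lists were chosen with earlier results of these data known.

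TMM factors (edgeR 4.0.16, R 4.3.3) scaled the counts of the 3 libraries. Log2 ratios have a prior count of 2, and genes averaging 10 or more counts per library were kept. Ratio intervals are exact 95% Clopper-Pearson intervals (scipy 1.17.1) of the counts, without the prior count. A floor of 3 counts was used only for the folds of DLL4 over the parental library. The scaling and fold step were tested on simulated data. Beside the 10 genes, list genes past 2-fold in any comparison, RBPJ, ADAM10 and ADAM17 were named. Of the 3 genes nearest to the member that differed most, those reported here were named. RFNG, HES4, HES6, BHLHE41, NOTCH2NL and DLL4 were named after their values were seen. Positions come from GENCODE 29 (GRCh38) and promoters from RefSeq (GRCh38.p14). The alternatives were DESeq2 1.42.0 size factors, library totals, the upper quartile, filters of 1 count in any library and a mean of 50 counts, prior counts of 0.5 and 5, and FPKM with pseudocounts of 1 and 0.1.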

Additional observations from a re-analysis of the deposited data

Results flagged for a closer look

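Of the Notch genes and the named genes of the wider pathway, 2 went in opposite directions in the resistant lines with counting intervals away from 0 in each. MFNG, the gene of manic fringe, was below CAL27 in CAL27/5FU cells and above it in CAL27/OXA cells, a log2 ratio of 2.15 (1.94 to 2.39) between the resistant lines. POGLUT1, the gene of an O-glucosyltransferase of the receptors, did the same with a log2 ratio of 1.35 (1.17 to 1.55). With 1 library per line the difference was not tested.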

How the results depend on the processing

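Each value was recomputed under 9 alternatives. Of the 30 ratios of the 10 genes, 28 had the same sign and 23 were on the same side of 2-fold under all 9. The exceptions in sign were JAG2 in CAL27/5FU over CAL27 cells, up to 0.12, and HES1 between the resistant lines. Scaling by library totals moved the median of all genes to 0.17 in CAL27/5FU and 0.14 in CAL27/OXA cells, and the higher genes made up 67.2% and 51.1% of all genes past 2-fold in place of 55.7% and 41.3% (65.6% and 49.3% with FPKM and a pseudocount of 0.1). The median of the 10 genes in CAL27/5FU cells was then -0.79, and it was -0.79 with FPKM and a pseudocount of 0.1. A pseudocount of 1 FPKM, which by construction shrinks ratios of low genes, gave medians of -0.66 in CAL27/5FU and -0.72 in CAL27/OXA cells. It left 2 of the 10 genes more than 2-fold lower in CAL27/5FU over CAL27 cells, as NOTCH1, HES1 and HEY1 dropped out, and 1 between the resistant lines. In CAL27/OXA over CAL27 cells HES1 and HEY1 dropped out. For the other pathway genes this pseudocount gave 1 higher and 1 lower gene in CAL27/5FU cells, 2 and 3 in CAL27/OXA cells, and 2 and 2 between the resistant lines. A mean of at least 50 counts gave 3 higher genes in CAL27/5FU cells, and FPKM with a pseudocount of 0.1 gave 2 lower genes there. Over all genes, 1157 were higher and 919 lower in CAL27/5FU cells, which became 1899 and 1555 with a filter of 1 count in any library, 760 and 655 with a mean of at least 50 counts and 503 and 311 with the pseudocount of 1 FPKM. In CAL27/OXA cells 894 and 1269 became 1348 and 1925, 608 and 951, and 368 and 481, and between the resistant lines 571 and 1146 became 981 and 1861, 369 and 794, and 165 and 437. Counts near or under 100, as for HEY1, HEY2, HEYL, DLL3 and DTX1, give wide counting intervals, and the spread between replicates was not measured.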
